A study of Mus musculus with 6 samples.

Results

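CC chemokines are small secreted proteins that draw leukocytes along a gradient, and CC chemokine receptors are the G protein-coupled receptors that sense them. Their expression was followed here in progenitor cells of mouse white fat for 8 ligand genes (Ccl2, Ccl3, Ccl4, Ccl6, Ccl7, Ccl8, Ccl9 and Ccl11) and 1 receptor gene (Ccr2). Every probe whose platform gene symbol was 1 of these 9 names was taken, which gave 13 of the 45281 probes and 9 of the 19057 named genes on the array. Of these, 11 probes from 8 genes passed the detection filter, as did 16442 probes and 9760 named genes in all. The cells were stromal-vascular cells positive for green fluorescent protein, sorted by flow cytometry from inguinal, interscapular and gonadal white fat of adult mice aged 2 to 6 months. All mice carried PPARgamma-tTA and tetO-H2B-GFP, so a fluorescent histone was switched on by a transactivator under the Pparg promoter. The sort was therefore on this indirect reporter of the Pparg promoter in both groups. Tissue of both groups had the same enzyme step before it (collagenase, 37 degrees C, 2 hours). The levels below are those of cells after this step, and its part in the chemokine signal was not tested. The sorted pool, called progenitors here, also gave signal for macrophage and endothelial markers, given below. In 1 group the chow held 0.0075% rosiglitazone, a thiazolidinedione agonist of PPARgamma, for 2 months, and the other group ate the same chow without it. Each group had 3 arrays, each from a cohort of 3 to 4 mice per the design text, and the replicate spread below is that between cohorts rather than single animals.

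In fat, CC chemokines are best known for recruiting monocytes, which become adipose tissue macrophages, and for the inflammation that accompanies obesity. Ccl2, Ccl7 and Ccl8 belong to the monocyte chemoattractant proteins, and Ccr2 is the receptor through which Ccl2 and Ccl7 attract monocytes. Ccl3 and Ccl4 are the macrophage inflammatory proteins alpha and beta, and Ccl6 and Ccl9 are rodent ligands of the receptor Ccr1 made mainly by myeloid cells. Ccl11, or eotaxin, attracts eosinophils through Ccr3 and is a typical product of fibroblasts and other stromal cells. In the RefSeq gene table (GRCm38.p6) all 8 ligand genes lie on chromosome 11, in 2 clusters. The first holds Ccl2, Ccl7, Ccl11, Ccl12, Ccl8 and Ccl1 in this order, and the second holds Ccl5, Ccl9, Ccl6, Ccl3 and Ccl4, with 52 annotated genes between Ccl1 and Ccl5. The records of Ccl3 and Ccl4 overlap, and where each probe lies within them was not analysed here. Ccr2 lies on chromosome 9.

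The RefSeq promoter table held 5 of the 9 genes (Ccl3, Ccl6, Ccl8, Ccl9 and Ccr2). The 300 bases from 250 before to 50 after the start are shown for 3 genes of the second cluster, each of which fell on these arrays, and for Ccl8 of the first, which did not pass the test. Each is written 5′ to 3′ on the strand of its gene, at chr11:83578587-83578886 (minus strand) for Ccl9, chr11:83593038-83593337 (minus strand) for Ccl6, chr11:83649329-83649628 (minus strand) for Ccl3 and chr11:82114935-82115234 (plus strand) for Ccl8. Capitals mark every match to any of 6 motifs searched on both strands.
Ccl9: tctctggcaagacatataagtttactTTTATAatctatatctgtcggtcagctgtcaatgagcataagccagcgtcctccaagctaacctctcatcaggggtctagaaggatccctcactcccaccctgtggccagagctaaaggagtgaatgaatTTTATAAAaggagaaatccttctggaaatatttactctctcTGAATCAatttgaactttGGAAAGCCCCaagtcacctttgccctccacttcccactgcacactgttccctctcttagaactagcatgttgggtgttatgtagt
Ccl6: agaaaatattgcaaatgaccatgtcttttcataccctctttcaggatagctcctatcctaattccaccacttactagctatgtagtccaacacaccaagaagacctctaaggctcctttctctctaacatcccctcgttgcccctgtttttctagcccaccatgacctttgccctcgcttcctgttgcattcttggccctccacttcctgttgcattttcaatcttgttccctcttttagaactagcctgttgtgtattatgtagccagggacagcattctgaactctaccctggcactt
Ccl3: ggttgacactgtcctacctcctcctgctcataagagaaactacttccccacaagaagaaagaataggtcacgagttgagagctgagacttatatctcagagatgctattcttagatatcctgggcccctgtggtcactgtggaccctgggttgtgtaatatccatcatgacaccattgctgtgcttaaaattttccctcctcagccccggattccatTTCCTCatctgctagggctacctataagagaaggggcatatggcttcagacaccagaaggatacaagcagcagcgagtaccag
Ccl8: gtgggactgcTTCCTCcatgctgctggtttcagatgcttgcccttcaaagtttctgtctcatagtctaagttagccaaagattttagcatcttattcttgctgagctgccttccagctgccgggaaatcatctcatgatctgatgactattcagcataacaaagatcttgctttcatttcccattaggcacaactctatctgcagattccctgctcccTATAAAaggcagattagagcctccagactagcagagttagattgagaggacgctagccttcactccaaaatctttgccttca
The motifs were the 10-letter NF-kB consensus, AP-1 (TGANTCA), the PU.1 core (GAGGAA), a C/EBP motif (TTGCNNAA), the PPAR direct repeat and the TATA box (TATAAA). Of 32851 mouse promoters of the same length, 8.46% held the NF-kB motif, 7.81% the AP-1 motif, 28.3% the PU.1 core, 10.8% the C/EBP motif, 0.0396% the PPAR repeat and 13.6% the TATA box. In Ccl9 an NF-kB match lay from -35 to -26, an AP-1 match from -53 to -47 and TATA matches from -224 to -219, from -94 to -89 and from -92 to -87, of which the last pair overlap. A PU.1 core lay from -33 to -28 in Ccl3 and from -240 to -235 in Ccl8, and Ccl8 also held a TATA match from -32 to -27. The Ccl6 window held none of these letters. The Ccl6 and Ccl9 promoters resembled each other: bases -59 to 15 of Ccl6 aligned with bases -18 to 49 of Ccl9, with 59 of 74 alignment columns identical (79.7%). Over the remaining pairs of the 5 promoters the best local alignment spanned 9 to 39 columns.

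Setting rosiglitazone against untreated cells asks what a PPARgamma agonist does to transcripts of the progenitor fraction. Rosiglitazone went with lower signal for Ccl3, Ccl4, Ccl6 and Ccl9, the 4 members that lie in the second cluster, by 4.36-fold to 6.09-fold. Ccl7 was 1.70-fold lower by its brightest probe, and Ccl2, Ccl8 and Ccl11 did not pass the test. By the brightest kept probe of each gene, 5 of the 8 measured members fell and 0 rose, where 2.27% of all 9760 genes tested fell and 0.594% rose. By single probes, 6 of 11 fell and 0 rose, where 1.89% of all kept probes fell and 0.493% rose. The same 5 had no overlap between the groups and were lower, as were 8.53% of all genes. The median log2 change over the 8 genes was -1.44, beside 0.04 over all genes. The members were chosen with earlier results of these data known, so these comparisons with all genes are a description and no test. The test was limma's moderated test on normalized log2 intensity with 3 arrays a group, and p-values carry the Benjamini-Hochberg adjustment across the 16442 kept probes (called under 0.05). The count of 5 became 2 without untreated replicate 1, 3 without untreated replicate 2, 3 under a trended, robust variance and 1 when no detection filter was set, and Ccl3 was the member still past the threshold in every one of the 17 other settings. In sorted cell pools, fewer cells of a type and less RNA per cell cannot be told apart.

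The log2 intensities of Ccl9, a myeloid ligand of Ccr1, were 9.63, 9.73 and 8.03 on the rosiglitazone arrays, against 11.76, 11.50 and 11.94 on the untreated arrays. The highest rosiglitazone array lay below the lowest untreated array, and rosiglitazone replicate 3 was the lowest of all. Ccl9 was 6.09-fold lower (log2 change -2.61 ± 0.39, SE, adjusted p = 0.0052). Its call did not survive testing all probes unfiltered (adjusted p = 0.11) or a trended, robust variance (adjusted p = 0.077), and it held without each array in turn.

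Ccl6, its neighbour and close relative, had log2 intensities of 5.86, 5.96 and 4.56 with rosiglitazone and of 7.67, 7.13 and 7.96 in untreated cells. These groups did not overlap either, and rosiglitazone replicate 3 was again lowest. There the probe read 88.7 intensity units and was not detected, so part of the fold rests on signal at background. Ccl6 was 4.36-fold lower (log2 change -2.12 ± 0.36, SE, adjusted p = 0.00996). The change was -1.15 without background correction and -1.16 on the authors' normalized table, both past the threshold, and the call was lost without untreated replicate 1 (adjusted p = 0.065) and without a filter (adjusted p = 0.16).

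Ccl3, which attracts monocytes and T cells, had 6.53, 6.68 and 5.75 log2 units on the rosiglitazone arrays and 8.61, 8.54 and 9.19 log2 units on the untreated arrays. All 3 rosiglitazone arrays lay below all 3 untreated arrays, and both groups were detected throughout. The fall was 5.49-fold (log2 change -2.46 ± 0.27, SE, adjusted p = 0.00085), and over the other settings it ranged from -2.64 to -1.71 on the log2 scale. Of all 16442 kept probes it had the 61st smallest p-value.

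Ccl4, which like Ccl3 attracts monocytes and T cells, was measured by 2 probes. The brighter gave 10.00, 10.39 and 8.36 log2 units with rosiglitazone and 12.00, 12.25 and 11.67 log2 units in untreated cells. The dimmer gave 6.88, 7.47 and 5.59 log2 units with rosiglitazone and 8.96, 8.95 and 8.67 log2 units without it. Both probes put all rosiglitazone arrays below all untreated arrays, with replicate 3 lowest and replicate 2 highest among the rosiglitazone arrays. The brighter was 5.23-fold lower (log2 change -2.39 ± 0.43, SE, adjusted p = 0.016) and the dimmer 4.62-fold lower (-2.21 ± 0.38, adjusted p = 0.0125). For the brighter probe the call was lost without untreated replicate 1 (adjusted p = 0.086), without untreated replicate 2 (0.076), with a trended, robust variance (0.19) and in the unfiltered fit (0.21), and it held without rosiglitazone replicate 3 (log2 change -1.78, adjusted p = 0.0016).

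**Figure D1:**
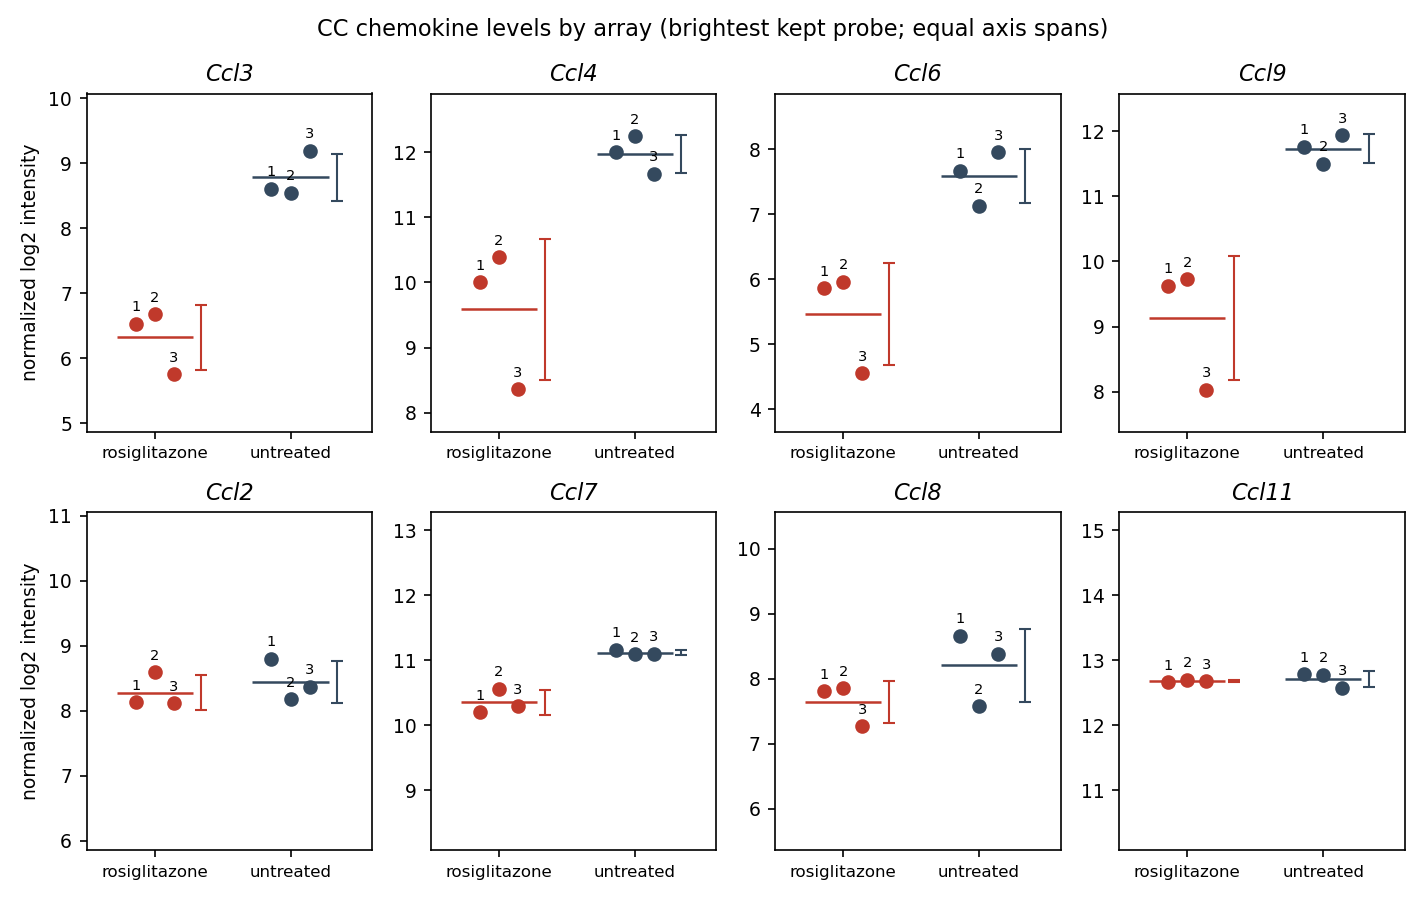
Normalized log2 intensity of the 8 measured CC chemokine genes on each array, with rosiglitazone arrays on the left and untreated arrays on the right of each panel. Points carry the replicate number, horizontal lines are group means, bars at the side are SD (n = 3), and every panel spans the same number of log2 units. Ccl3, Ccl4, Ccl6 and Ccl9 show separated groups with rosiglitazone replicate 3 lowest, and those of Ccl2, Ccl8 and Ccl11 overlap.

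In the first cluster, Ccl11, Ccl2 and Ccl8 did not pass the test. Ccl11, the eosinophil attractant, had 12.67, 12.70 and 12.67 log2 units with rosiglitazone and 12.79, 12.78 and 12.58 log2 units in untreated cells. The groups overlapped, and the log2 change was -0.03 (95% CI -0.39 to 0.33, adjusted p = 0.96). Its other probe gave a change of -0.07 (95% CI -0.45 to 0.32, adjusted p = 0.93), so the intervals of both probes leave out a fall of the size seen for Ccl3. The 3 rosiglitazone arrays differed by 0.04 log2 units for the brighter Ccl11 probe, while they differed by 1.70 for Ccl9 and by 2.03 for Ccl4.

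Ccl2, the main monocyte attractant, had 8.13, 8.59 and 8.12 log2 units on the rosiglitazone arrays and 8.80, 8.17 and 8.37 log2 units on the untreated arrays. Untreated replicate 1 was the highest and the groups overlapped. The log2 change was -0.16 (95% CI -0.65 to 0.32, adjusted p = 0.84), and it was 0.011 without untreated replicate 1. Ccl8, whose mouse form acts on Ccr8, had 7.81, 7.85 and 7.27 log2 units with rosiglitazone and 8.66, 7.58 and 8.38 log2 units in untreated cells. Untreated replicate 2 fell among the rosiglitazone arrays, and the change of -0.57 did not pass (95% CI -1.19 to 0.06, adjusted p = 0.48).

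Ccl7, another ligand of Ccr2, stood between these patterns. Its brighter probe gave 10.20, 10.56 and 10.29 log2 units with rosiglitazone and 11.16, 11.09 and 11.10 log2 units in untreated cells, with no overlap. It was 1.70-fold lower (log2 change -0.77 ± 0.17, SE, adjusted p = 0.048). The other probe gave 9.70, 10.17 and 9.74 log2 units with rosiglitazone and 11.13, 10.29 and 10.31 log2 units in untreated cells, also without overlap, and did not pass (log2 change -0.71 ± 0.25, adjusted p = 0.27). The call of the brighter probe was lost in 12 of 17 other settings, among them the removal of any 1 of the 6 arrays (adjusted p = 0.074 to 0.19), median scaling and the mean of both probes (adjusted p = 0.099).

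The receptor Ccr2 could not be compared. Its first probe read 84.9, 100.7 and 87.3 intensity units on the rosiglitazone arrays and 91.0, 83.8 and 117.8 units on the untreated arrays, and was detected on untreated replicate 3 alone. Its deposited detection p-values were 0.519, 0.202 and 0.150 with rosiglitazone and 0.868, 0.650 and 0.020 without it. The second probe read 84.3, 103.5 and 80.0 units with rosiglitazone and 95.2, 77.0 and 90.8 units in untreated cells, and was detected on 0 of 6 arrays. These readings set no level for Ccr2 in either group.

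**Figure D2:**
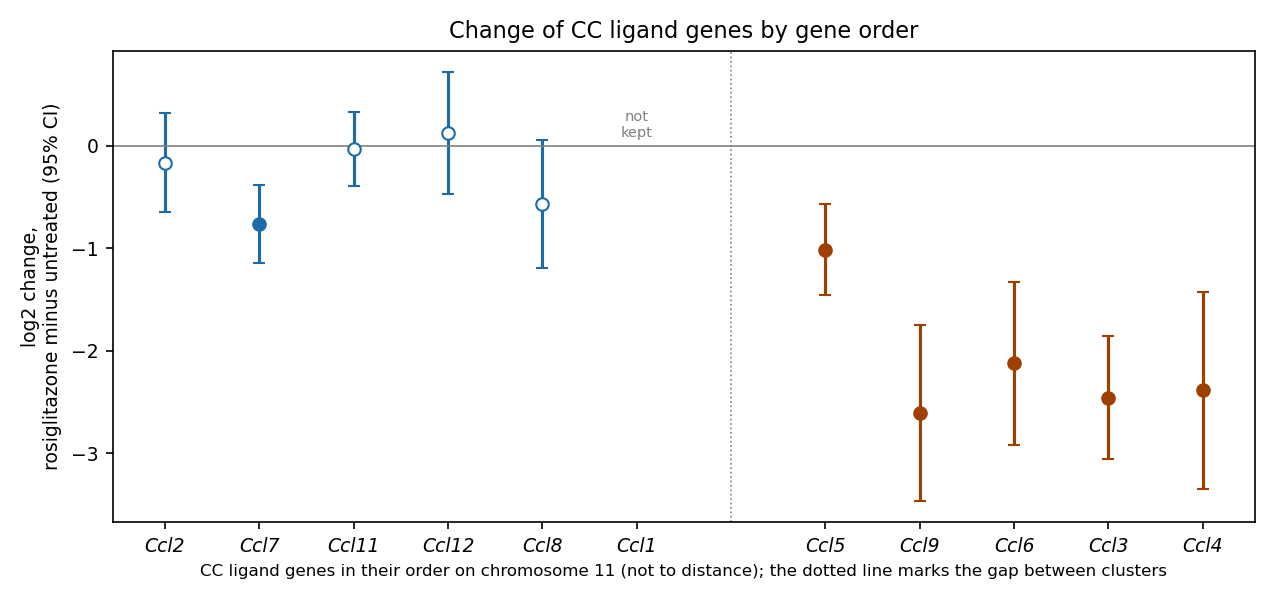
Log2 change (rosiglitazone minus untreated) of CC ligand genes in their order along chromosome 11, with 95% confidence intervals and filled points for adjusted p under 0.05. The axis gives order and not distance, the dotted line marks the gap between the clusters, and Ccl1 was not kept. In the first cluster Ccl7 alone is filled, and in the second Ccl5, Ccl9, Ccl6, Ccl3 and Ccl4 all lie below 0.

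Set side by side, the mean of Ccl3, Ccl4, Ccl6 and Ccl9 was 8.01, 8.19 and 6.67 log2 units on the rosiglitazone arrays and 10.01, 9.86 and 10.19 log2 units on the untreated arrays. The mean of Ccl2, Ccl7, Ccl8 and Ccl11 was 9.70, 9.93 and 9.59 log2 units with rosiglitazone and 10.35, 9.91 and 10.11 log2 units without it. Their medians of log2 change were -2.42 and -0.37. This split by gene order was drawn with the values in view and was not tested.

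Other CC family genes, from lists of ligands and receptors, gave further values. Of 16 other CC ligands 8 were kept, 1 fell and 0 rose, where 2.27% of all genes fell and 0.594% rose. Their median log2 change was -0.42, and this median was 0.19 without untreated replicate 3. The gene that fell was Ccl5, which attracts T cells and monocytes and opens the second cluster. Ccl5 had 5.32, 5.87 and 5.46 log2 units with rosiglitazone and 6.66, 6.33 and 6.70 log2 units in untreated cells, with no overlap. It was 2.02-fold lower (log2 change -1.01 ± 0.20, SE, adjusted p = 0.026), and its call was lost in 8 of 17 other settings, with adjusted p of 0.054 on the authors' normalized table, 0.26 with median scaling, 0.10 without rosiglitazone replicate 1, 0.055 without rosiglitazone replicate 3, 0.14 without untreated replicate 1 and 0.082 without untreated replicate 3. Ccl12, which lies among the first cluster, had a log2 change of 0.12 (adjusted p = 0.91). Ccl19, a lymphoid homing ligand, and Ccl27a had changes of -0.55 (adjusted p = 0.37) and 0.55 (adjusted p = 0.30), neither past the threshold. Ccl21a, another lymphoid ligand, read 7.54 log2 units on untreated replicate 3 and 4.87 to 5.75 on the other 5 arrays, and its probes can share signal with near-identical copies of the gene. These 4 genes were singled out after their values were seen.

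Among 10 other CC receptors 9 had a probe and 2, Ccr6 and Ccr7, were kept. Neither passed in limma (0 also at an unadjusted p of 0.05, where 6.97% of all genes were lower and 6.07% higher), with log2 changes of 0.16 and -0.49. The Ccr1 probe, for the receptor of Ccl3, Ccl6 and Ccl9, was detected on 0 of 6 arrays. Of 6 atypical and related receptors 5 were kept and 0 passed in limma, while 3 were lower and 1 higher at an unadjusted p of 0.05, beside the 6.97% and 6.07% of all genes. Ccrl2, a receptor that does not signal, had 6.60, 6.62 and 6.25 log2 units with rosiglitazone and 7.43, 6.998 and 7.72 log2 units in untreated cells, a change of -0.89 (adjusted p = 0.073). Ackr1, which takes up chemokines on venular endothelium and red cells, had 7.10, 6.95 and 6.58 log2 units with rosiglitazone and 7.67, 7.58 and 7.84 log2 units in untreated cells, a change of -0.82 (adjusted p = 0.057). Of the 5 kept genes 3 were lower with no overlap between the groups, as were 8.53% of all genes. They were Ccrl2, Ackr1 and Pitpnm3 (log2 change -0.53, adjusted p = 0.34). Ackr2, a scavenger of inflammatory CC chemokines, had a change of 0.56 in the other direction (adjusted p = 0.30), also with no overlap. The share of all genes higher with no overlap was not counted. Ackr2 and Pitpnm3 were named after their values were seen. In other settings Ackr1 passed in 6 of 17 and Ccrl2 in 3 of 17.

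**Figure D3:**
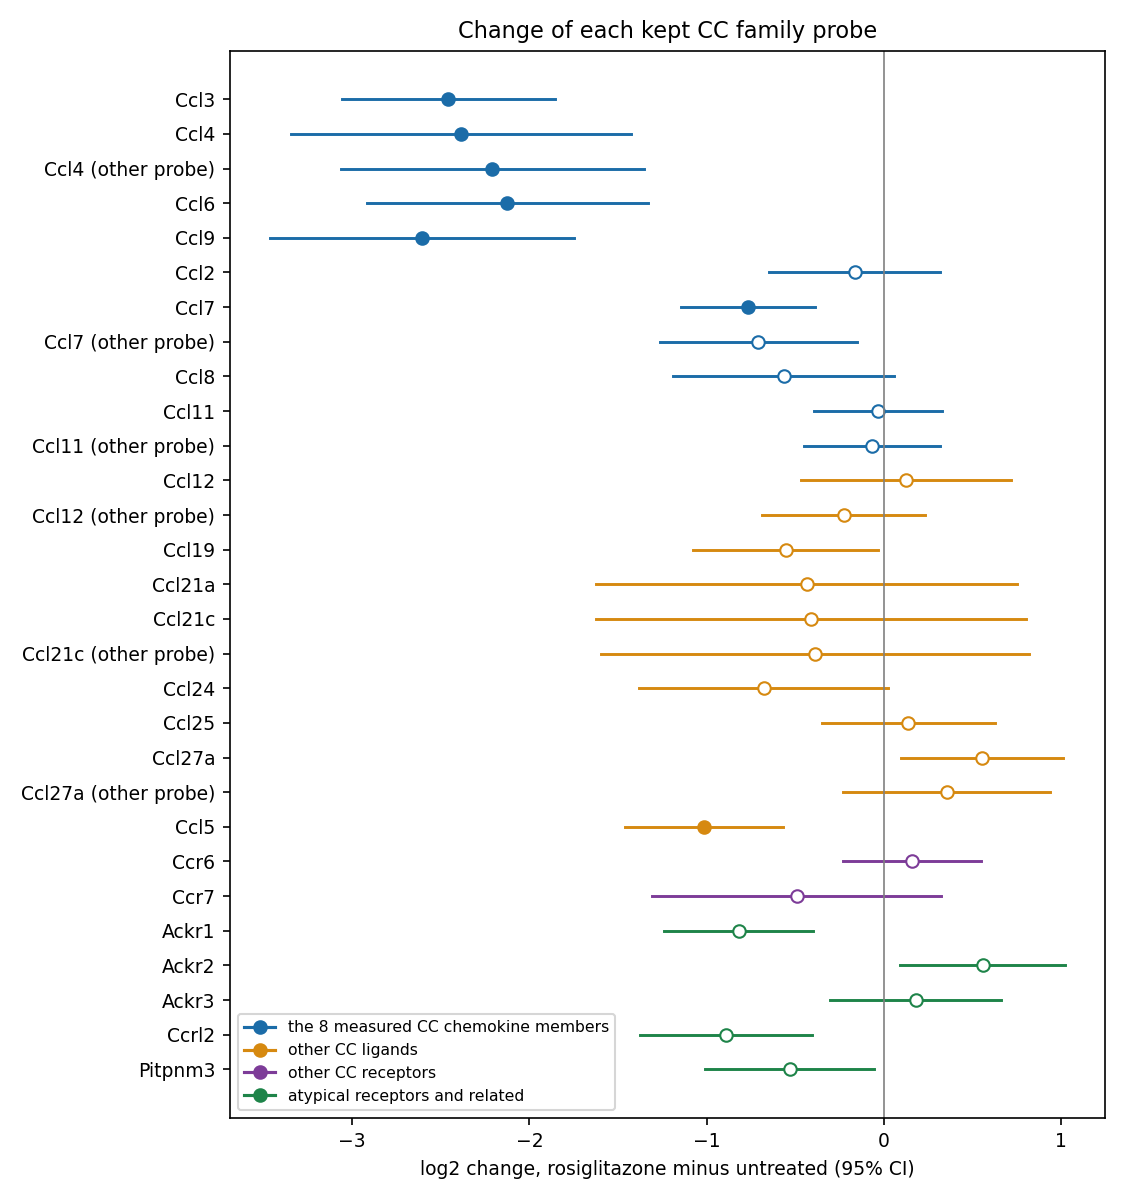
Log2 change (rosiglitazone minus untreated) with 95% confidence interval for each kept probe of the CC family, by list. Filled points passed an adjusted p of 0.05 and open points did not. The intervals of Ccl3, Ccl4, Ccl6 and Ccl9 lie wholly below 0, while those of Ccl2 and Ccl11 include 0.

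Downstream of the receptors, 29 of 40 chemokine signalling genes were kept, with a median log2 change of -0.20. Of these 5 fell and 0 rose, where 2.27% of all genes fell and 0.594% rose. At an unadjusted p of 0.05 in limma 11 were lower and 0 higher, beside 6.97% and 6.07% of all genes. Rgs1, which shuts off G protein signalling in leukocytes, was 7.07-fold lower (adjusted p = 0.0011), and Vav1, a guanine nucleotide exchange factor of blood cells, 3.41-fold lower (adjusted p = 0.0061). The blood-cell GTPase gene Rac2 was 2.39-fold lower (adjusted p = 0.0092) and was detected on 1 of 3 rosiglitazone arrays. Arrb2, which desensitises receptors, and the G protein subunit gene Gng2 were 1.96-fold and 1.95-fold lower (adjusted p = 0.021 and 0.029). All 5 lost the call without a filter, and Rac2, Arrb2 and Gng2 lost it with median scaling (adjusted p = 0.054, 0.22 and 0.22). Without background correction the log2 changes of Vav1, Rac2 and Arrb2 were -0.93, -0.46 and -0.64 and still passed, against -1.77, -1.26 and -0.97 as reported. Gng2 did not pass there (log2 change -0.39, adjusted p = 0.087) or on the authors' normalized table (-0.40, adjusted p = 0.086), against -0.97 as reported. Without untreated replicate 1 those of Rac2, Arrb2 and Gng2 were lost (adjusted p = 0.059, 0.10 and 0.15). Arrb2 also lost it without untreated replicate 2 or 3 or rosiglitazone replicate 2 (0.057 to 0.074), and Gng2 without untreated replicate 3 or any rosiglitazone array (0.053 to 0.079). Of 12 kept genes of the NF-kB family, whose proteins activate many chemokine genes, 0 passed in limma, 0 also at an unadjusted p of 0.05. Their median log2 change was -0.03, and the smallest p-values were those of the inhibitor gene Nfkbie (log2 change -0.39, adjusted p = 0.50) and of Tnfaip3, a brake on the pathway (log2 change -0.61, adjusted p = 0.51).

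Markers of macrophages fell along with Ccl3, Ccl4, Ccl6 and Ccl9. Of 20 macrophage and monocyte markers 16 were kept, 14 fell and 0 rose, where 2.27% of all genes fell and 0.594% rose. Their median log2 change was -2.38. The mean of this list was 7.44, 7.59 and 6.58 log2 units on the rosiglitazone arrays and 9.55, 9.16 and 9.55 log2 units on the untreated arrays, so rosiglitazone replicate 3 was lowest here too. That array also stood apart in other lists. Its endothelial mean was 8.11 log2 units, where the other rosiglitazone arrays had 7.16 and 7.25 and the untreated arrays 7.87, 7.59 and 8.05. Its mesothelial mean was 5.14 log2 units, where the other rosiglitazone arrays had 6.15 and 5.86 and the untreated arrays 5.34, 5.09 and 5.27. The part of this array's makeup in the chemokine values was not tested. The 3 brightest, Lyz1, Lyz2 and the lysosomal gene Laptm5, were 2.04-fold, 3.97-fold and 3.79-fold lower (adjusted p = 0.038, 0.0060 and 0.0062). Adgre1, which encodes the macrophage surface protein F4/80, was detected on all 6 arrays at 6.46 ± 0.72 log2 units with rosiglitazone and 9.25 ± 0.43 log2 units without it (SD, n = 3), while Spi1, which encodes PU.1, was detected on 0 rosiglitazone and 3 untreated arrays and did not pass (log2 change -0.82, adjusted p = 0.13). Cd163 did not pass either (log2 change -0.57, adjusted p = 0.70). The part of these cells in the fall of the chemokines was not tested. Adipose progenitor markers averaged 10.17, 10.14 and 10.14 log2 units with rosiglitazone and 10.06, 10.06 and 9.96 log2 units in untreated cells, with 0 of 12 past the threshold in limma, 0 also at an unadjusted p of 0.05. The brightest were Dcn, Lum and Pdgfra, with log2 changes of 0.00416, 0.10 and 0.24, and Pparg itself had 8.99 ± 0.30 log2 units with rosiglitazone and 9.05 ± 0.06 log2 units without it (SD, n = 3). Immediate early genes, which tissue digestion can induce, had 0 of 13 past it, 0 lower and 1 higher at an unadjusted p of 0.05, and a median of 0.02. In the T and NK cell list, 5 of 14 were kept and 1 fell, Il7r, where 2.27% of all genes fell. Il7r was detected on 1 rosiglitazone and 3 untreated arrays, so its fall rests in part on signal near background. The probes of Cd3e, Cd3g, Cd4 and Cd8a were detected on 0 arrays. Eosinophil markers, relevant to Ccl11, had 1 of 6 kept, Prg2, with a log2 change of -0.30 (adjusted p = 0.66). Of 8 kept mural cell markers 2 fell, Mcam and Notch3, where 2.27% of all genes fell. Among 11 endothelial, 3 mast cell, 4 neutrophil, 1 B cell, 2 dendritic cell, 4 mesothelial, 3 erythroid and 4 mature adipocyte markers 0 passed in limma, with 2 lower and 3 higher at an unadjusted p of 0.05, again beside 6.97% and 6.07% of all genes.

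Each member was also set against the macrophage marker mean of the same array, which asks whether the change was unequal. For Ccl3 the difference was -0.91, -0.91 and -0.83 with rosiglitazone and -0.95, -0.61 and -0.37 in untreated cells, a shift of -0.24 (exact permutation p = 0.40). Ccl4 and Ccl6 shifted by -0.17 and 0.09 (exact permutation p = 0.80 for both), and their groups overlapped. For Ccl9 the difference was 2.19, 2.14 and 1.44 with rosiglitazone and 2.21, 2.34 and 2.39 in untreated cells, so the groups were separate by a narrow margin. Ccl9 shifted by -0.39 (exact permutation p = 0.10), and by -0.15 without rosiglitazone replicate 3. Its shift was -0.65 with an offset of 50, -0.80 without background correction and -0.79 on the authors' normalized table. In the last 3 settings, in that order, Ccl6 shifted by 0.36, 0.48 and 0.48 (exact permutation p = 0.10 each) and Ccl4 by -0.45, -0.62 and -0.61. The shift of Ccl3 was -0.08 without background correction and -0.09 on the authors' normalized table, -0.39 without untreated replicate 1 and -0.10 without untreated replicate 3. That of Ccl7, given next, was 0.90 without background correction and 0.91 on the authors' normalized table. Ccl11 shifted by 2.19, Ccl2 by 2.05, Ccl8 by 1.65 and Ccl7 by 1.45 log2 units, each with all rosiglitazone arrays above all untreated arrays (exact permutation p = 0.10). The macrophage marker mean was itself lower on every rosiglitazone array, so any gene that stayed level shifts up with full separation and this p. Such upward shifts therefore show only a smaller fall than that mean, and the share of all genes with them was not counted. The permutation tests were two-sided, 0.10 is the smallest p that 3 arrays against 3 allow, and after adjustment over the 8 members the smallest value was 0.16. The shifts of Ccl4 and Ccl6 changed sign when an array was left out. That of Ccl4 was 0.13 without rosiglitazone replicate 3 and 0.10 without untreated replicate 2. That of Ccl6 was -0.00053 without untreated replicate 2, close to no shift.

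**Figure D4:**
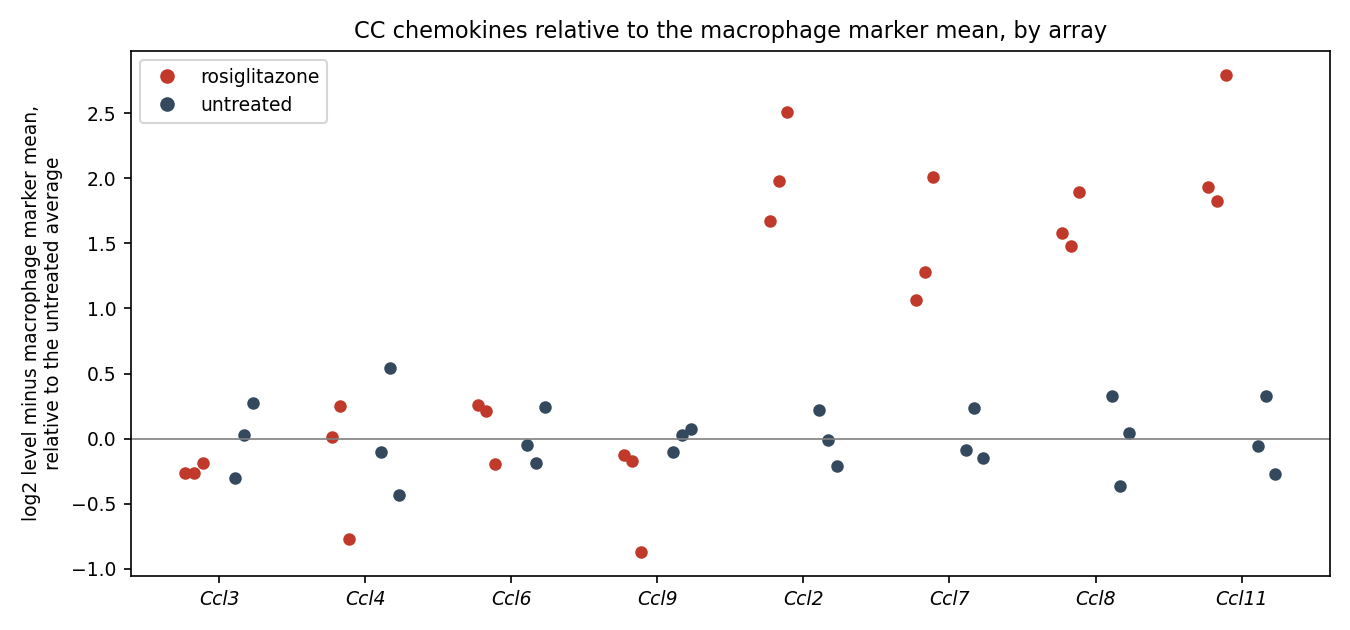
Log2 level of each CC chemokine minus the macrophage marker mean of the same array, drawn relative to the average of the untreated arrays, with rosiglitazone to the left of untreated for each gene. The groups overlap for Ccl3, Ccl4 and Ccl6, and the highest rosiglitazone point of Ccl9 lies just below its lowest untreated point. For Ccl2, Ccl7, Ccl8 and Ccl11 the rosiglitazone points lie above all untreated points. Any gene that stayed level would lie so too, because the macrophage marker mean was lower with rosiglitazone.

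Genes with the most similar pattern over the 6 arrays were named by the smallest root mean square difference between centred log2 profiles, among 9510 genes. For Ccl3 these were the MHC class II invariant chain gene Cd74 (0.15 log2 units), the Fc receptor gene Fcgr4 (0.18) and the nucleotide receptor gene P2ry6 (0.18). Nearest to Ccl4 were Cd14, the lipopolysaccharide co-receptor (0.13), Csf1r, the receptor of macrophage growth factor (0.31), and H2-Ab1 of MHC class II (0.32). Ccl9 lay closest to the leukocyte surface gene Cd52 (0.17), H2-Eb1 (0.18) and Fcgr3 (0.19), and Ccl6 to Alox5ap of leukotriene synthesis (0.16), Adssl1 (0.19) and Slamf9 (0.19). Those nearest to Ccl7 were Il7 (0.09), Tnfaip8l2 (0.10) and Irf8 (0.10), a myeloid transcription factor. Ccl8 lay nearest to Hs6st1, Guca1a and Efemp1 (0.15 to 0.16). Ccl2 was nearest to Pabpc1, Memo1 and Mcl1 (0.04 to 0.06) and Ccl11 to Lpl, Ywhaz and Wipf1 (0.03), genes whose own log2 changes lay between -0.23 and -0.01. A flat profile has many near neighbours, and likeness over 6 arrays of 2 groups is a description only.

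**Figure D5:**
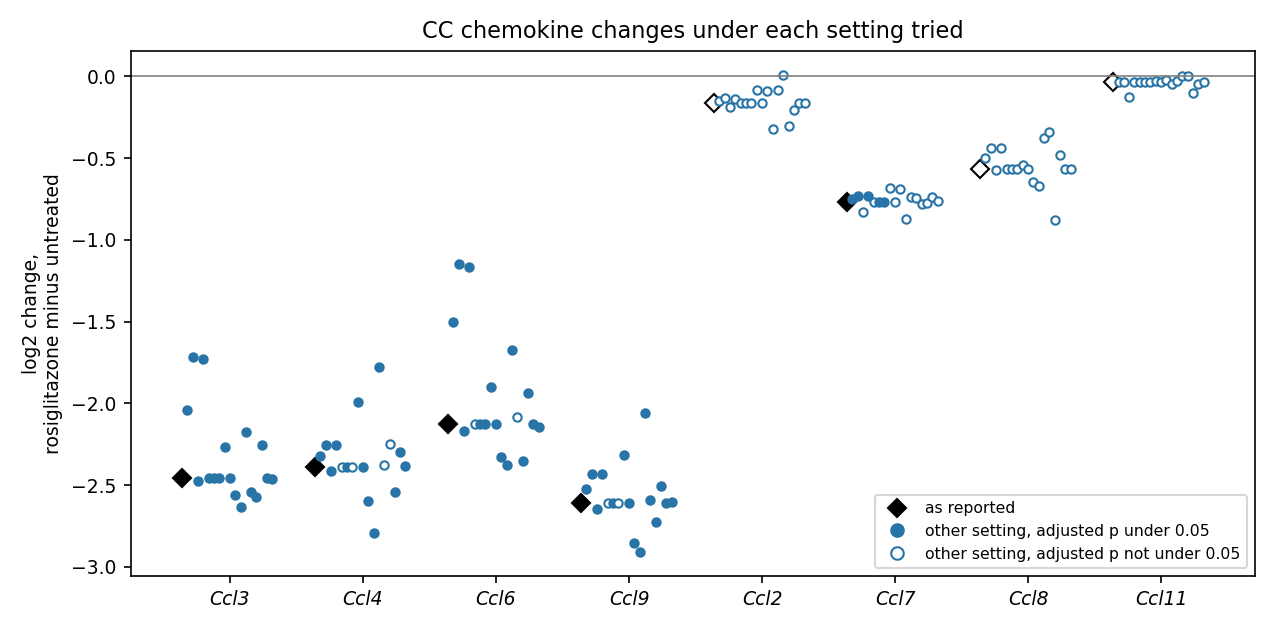
Log2 change (rosiglitazone minus untreated) of each CC chemokine as reported (diamond) and under 17 other settings (circles), filled where the adjusted p was under 0.05. All points of Ccl3 are filled, those of Ccl4, Ccl6 and Ccl9 are filled but for 2 to 4 settings, and those of Ccl2, Ccl8 and Ccl11 are open.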

How the data were processed

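Total RNA of sorted cells was turned into biotinylated cRNA for Illumina bead arrays, per the labels' protocols. The deposited non-normalized table gives the linear intensity of each of 45281 probes on 6 arrays, with no background subtracted as its values show, and a detection p-value that the authors deposited beside it. The authors' normalized table, also deposited, gives intensity after a normalization whose method is not given in the sources used here, and the deposited series table equals it. 

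Background was corrected by normexp from the detection p-values (offset 16), followed by log2 and quantile normalization in limma 3.58.1 (R 4.3.3). The order of these steps was settled after counts under both orders had been seen. The offset and any residual background understate changes of dim probes. Probes with detection p under 0.05 on at least 3 of 6 arrays were kept (16442). Groups were compared with lmFit and eBayes in limma without covariates, with Benjamini-Hochberg adjustment over all kept probes. The brightest kept probe stood for each gene (9760 genes). The code was tested on simulated data.

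Total intensity per array was 10330923 to 13615604 units with rosiglitazone and 9478692 to 14831319 in untreated cells, with 15492 to 17379 probes detected per array, and the number of arrays limits the precision. Correlations between arrays of a group were 0.971 to 0.985 over kept probes, and 0 arrays were duplicates. Columns were matched to samples by treatment and replicate number. No scan batch was given.

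Symbols came from the platform annotation, where 34885 probes had 1 symbol, 18 several and 10378 none here; 34807 matched RefSeq by Entrez number and 0 symbols changed. Promoter sequences came from RefSeq (GRCm38.p6). Members and gene lists were chosen with earlier results of these data known. Named genes were all members, the genes past the threshold (otherwise the 2 with the smallest p-values) in the CC, signalling and NF-kB lists, the 3 nearest profiles per member, Pparg and the 3 brightest kept genes of a marker list, given here for the macrophage and progenitor lists; other genes were named after their values were seen. Alternatives covered the offset, background correction, scaling, the authors' table, the filter, the variance model, array weights, a replicate block, each array left out, averaging of probes and, chosen after seeing the data, quantile normalization before log2.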

Additional observations from a re-analysis of the deposited data

How the results depend on the processing

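Of 136 log2 changes of the 8 members under 17 other settings, 113 kept their direction and side of the threshold, 20 no longer passed and 3 changed sign. The sign changes were those of genes near 0: Ccl2 at 0.011 without untreated replicate 1 (-0.32 to 0.011 with each array left out), and Ccl11 at 0.0038 without untreated replicate 1 and 0.00092 without untreated replicate 2 (-0.10 to 0.0038). The number of members that fell was 5 as reported, 1 without a filter on detection, 3 with a trended, robust variance and 2 to 4 when each array was left out. Over all probes, 81 were higher and 311 lower with rosiglitazone as reported. Without a filter 26 were higher and 131 lower, 30 were higher with median scaling and 168 with array weights. With each array left out, 31 to 116 were higher and 185 to 319 lower. The median log2 change of the members was -1.44 as reported, -0.94 without background correction, -0.95 on the authors' normalized table, -0.77 without a filter and -1.62 to -1.20 with each array left out. For the atypical and related receptors it was -0.53, and -0.29 with an offset of 50, -0.19 without background correction, -0.19 on the authors' normalized table, -0.18 without a filter and -0.68 to -0.33 with each array left out. For other CC ligands it was -0.42, and -0.81 to 0.19 with each array left out. Relative to the macrophage marker mean, the shift of Ccl4 was 0.13 without rosiglitazone replicate 3 and 0.10 without untreated replicate 2 (-0.39 to 0.13 with each array left out), and that of Ccl6 -0.00053 without untreated replicate 2 (-0.00053 to 0.24). Quantile normalization before log2, a setting chosen after seeing the data, gave 81 higher and 304 lower probes and 4 members that fell, with Ccl7 at an adjusted p of 0.051. The cause of these differences was not tested.

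Whether the replicate numbers pair the samples was not settled. Over kept probes, deviations of same-numbered arrays from their group means correlated by 0.05, -0.01 and 0.35, and those of other pairs by -0.30 to 0.27. The arrays did not all correlate best with their own number. Deviations from a mean of 3 arrays constrain each other, so these correlations can neither show nor exclude pairing. With the replicate number as a block, 113 probes were higher and 362 lower, against 81 and 311 without it. There 4 members fell, and among the members Ccl7 lost its call (adjusted p = 0.058). Fold changes of Ccl6, Rac2 and other dim probes rest on signal near background.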
